A study of Homo sapiens with 6 samples.

Results

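The genes described here carry glucose from the medium to lactate or into the TCA cycle. They are 45 genes chosen by symbol, among 19386 genes in the deposited table, and all 45 were found. Of these, 19 cover glucose uptake, glycolysis and lactate dehydrogenase (called the glycolytic arm below), 19 cover pyruvate entry into mitochondria, the pyruvate dehydrogenase (PDH) complex, pyruvate carboxylase and the TCA cycle (the mitochondrial arm), and 7 code for the PFKFB and PDK enzymes that regulate these routes. Messenger RNA was measured in AC16 cells, a human cardiomyocyte line derived by fusing adult ventricular cells with virus-transformed fibroblasts, so both groups are the same transformed wild-type line. KCl cells received 26 mM potassium chloride and were collected at 16 h (3 libraries). Control cells were untreated and were collected at the same time (3 libraries). Raised potassium depolarizes the cell membrane and is the arresting agent of cardioplegia solutions.

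Glucose enters through facilitative transporters and is trapped by hexokinase, and phosphofructokinase is the main committed step before the sugar is split. Pyruvate, the end product of glycolysis, is reduced to lactate in the cytosol or carried into mitochondria, where PDH turns it into acetyl-CoA for the TCA cycle. The adult heart draws most of its energy from mitochondrial oxidation, largely of fatty acids, and relies more on glucose when oxygen is short.

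Library totals ran from 18601977 to 19286588 estimated reads. The labels do not say whether libraries came from separate cultures, so the spread behind each p-value is that among these libraries and could be technical. The labelled cell type was weakly reflected in defining markers. Of 9 cardiomyocyte markers, 8 were under 1.5 TPM (a transcript level corrected for gene length) in every library, and TNNT2, NKX2-5, MYL7 and NPPA were at 0 in all of them. GATA4 was the exception at 25.0 to 31.3 TPM in KCl and 29.4 to 31.4 TPM in control, and the 9 summed to 26.2 to 32.1 TPM in KCl and 30.2 to 32.1 TPM in control, with 0 called. Of 7 fibroblast markers, 6 were higher after KCl and 0 lower, with a summed level of 2806 to 2995 TPM in KCl and 2699 to 2925 TPM in control. Over all tested genes, 20.1% were called higher and 18.0% lower. COL1A1, the most abundant of the 7, was not called and had 1445 to 1588 TPM in KCl and 1586 to 1747 TPM in control. Of 4 epithelial markers, 2 were higher, KRT18 and CDH1 (sum of the 4, 533 to 558 TPM in KCl and 368 to 380.5 TPM in control). KRT18 made up most of that sum (493 to 516 TPM in KCl and 330.3 to 341 TPM in control), and CDH1 was low (0.73 to 1.26 TPM in KCl and 0.28 to 0.39 TPM in control). KRT8 was not called. EPCAM was too low to be tested (0.2 to 0.56 TPM in KCl and 0.56 to 0.86 TPM in control). Of 3 leukocyte markers, 2 stand in the deposited table. CD68 was lower (119 to 128 TPM in KCl and 168 to 182 TPM in control). PTPRC was low and not called (0.62 to 1.23 TPM in KCl and 0.69 to 0.97 TPM in control). The smooth muscle list had 0 called, and of 3 endothelial markers, all under 1.5 TPM, 1 was higher. The part of these shifts in the results below was not tested, and in a bulk sample fewer cells of a type and less RNA per cell cannot be told apart.

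Glycolytic genes were mostly higher after KCl, and the PDH and TCA genes mostly did not pass the test. In the glycolytic arm, 11 of 19 genes rose, 1 fell and 7 did not pass. In the mitochondrial arm, with TMM scaling, 3 of 19 rose, 1 fell and 15 did not pass. That split turned with the scaling, to 1 higher and 7 lower with library totals or on the deposited FPKM and to 1 higher and 4 lower on log2(TPM + 1), and without control library 1 or 2 it was 1 higher and 1 lower. A gene was called when edgeR's quasi-likelihood test gave an adjusted p under 0.05 over the 13044 genes tested, by which 20.1% of all tested genes were called higher and 18.0% lower. As log2 fold changes of KCl over control, the median was 0.16 over the glycolytic arm (range -0.14 to 0.55) and -0.05 over the mitochondrial arm (range -0.72 to 0.25), against -0.005 over all tested genes. Abundant genes were called higher more often in this table. Among tested genes with a mean of at least 50 CPM (counts per unit of library size, scaled by TMM), 30.3% were called higher and 17.9% lower, and at that level 11 of 18 glycolytic genes rose and 1 fell, while 3 of 14 mitochondrial genes rose and 0 fell. CPM did not overlap between the groups for 14 glycolytic and 8 mitochondrial genes, where 47.8% of all tested genes did not overlap.

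The same counts were also averaged over each arm, library by library. The mean log2 CPM of the glycolytic arm was 8.67, 8.61 and 8.65 in the KCl libraries and 8.46, 8.48 and 8.46 in the control libraries. The mitochondrial arm had 6.13, 6.13 and 6.11 in KCl and 6.16, 6.20 and 6.12 in control. The glycolytic arm therefore lay above the mitochondrial arm by 2.54, 2.48 and 2.54 in KCl, and by 2.31, 2.29 and 2.34 in control. The gap averaged 2.52 ± 0.03 in KCl and 2.31 ± 0.03 in control (SD, n = 3 each), 0.21 log2 units wider in KCl, with no overlap between the libraries. A scaling factor per library cancels in this gap. No p is given because the genes were chosen with results known.

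**Figure D1:**
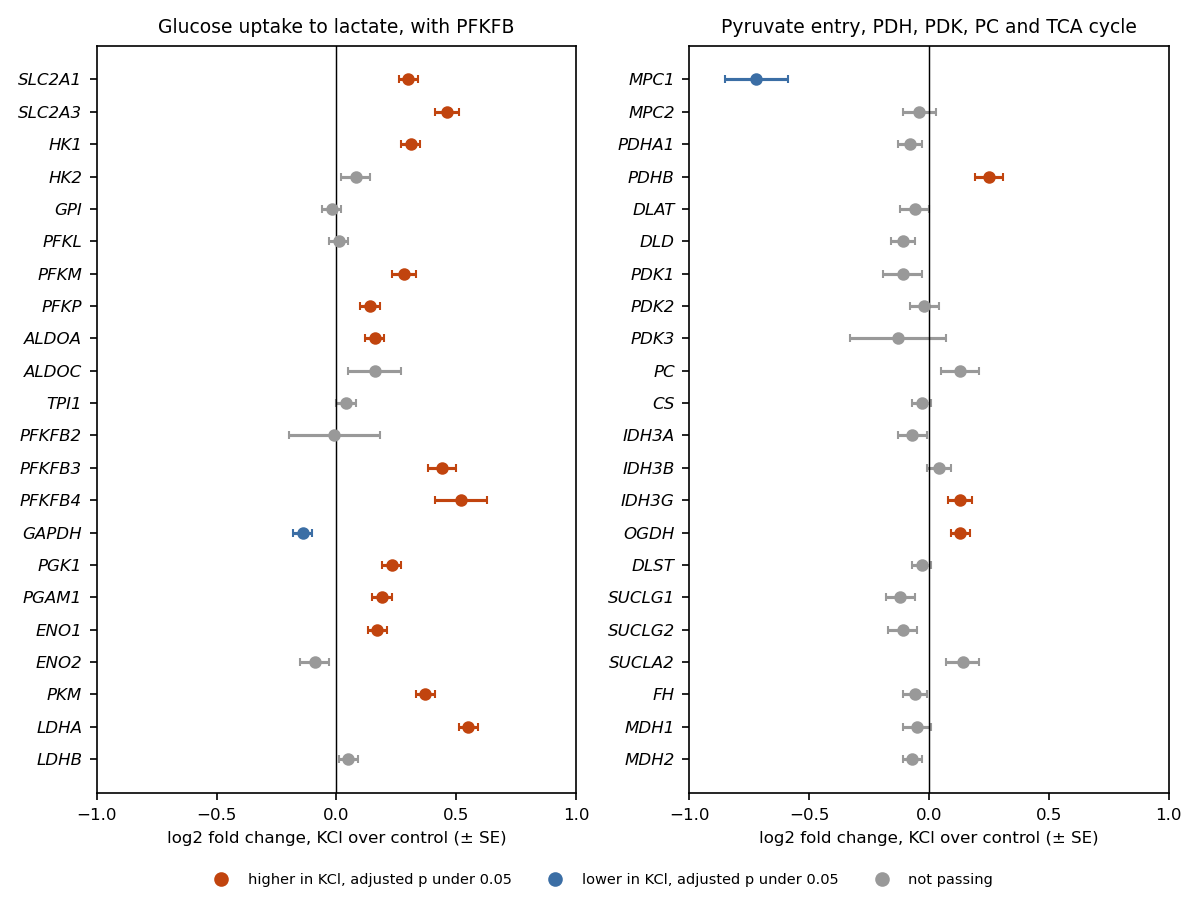
Log2 fold change of KCl over control (horizontal axis, ± SE from edgeR, 3 libraries a group) for the 44 tested genes, in pathway order from top to bottom; red points were higher, blue points lower and grey points did not pass. Red points crowd the left panel (uptake to lactate), where the values run from -0.14 to 0.55, and the right panel (pyruvate entry to TCA cycle) is mostly grey, with MPC1 far to the left at -0.72.

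Both glucose transporter genes and the main hexokinase gene rose. SLC2A1, which codes for the widely expressed transporter GLUT1, had 284, 273 and 287 CPM in KCl, against 238, 226 and 222 CPM in control. SLC2A3, coding for the high-affinity transporter GLUT3, had 129.8, 119 and 115 CPM in KCl, against 88.5, 89.4 and 85.5 CPM in control. HK1, a hexokinase that can bind to mitochondria and traps glucose as glucose 6-phosphate, had 241, 236 and 242 CPM in KCl, against 189, 194 and 196 CPM in control. Every KCl library was above every control library for these 3 genes. The log2 fold changes were 0.30 ± 0.04 (SE) for SLC2A1, 0.46 ± 0.05 for SLC2A3 and 0.31 ± 0.04 for HK1, with edgeR adjusted p of 2.7e-06, 7.72e-08 and 1.04e-06 in that order. HK2, the hexokinase that is inducible in many tissues, had 64.2, 71.2 and 64.3 CPM in KCl and 60.4, 63.9 and 64.1 CPM in control, and was not called (0.08 ± 0.06, edgeR adjusted p = 0.254). The summed level of the 4 genes was 399 ± 1.22 TPM in KCl and 329 ± 2.41 TPM in control (SD, n = 3 each). SLC2A3 is nearly identical over long stretches to SLC2A14, and its estimated counts were not whole in any of the 6 libraries, so its value carries some uncertainty from shared reads. SLC2A14, looked at after its values were seen, had 0.757 ± 0.0608 CPM in KCl and 0.504 ± 0.0783 CPM in control (SD, n = 3 each), and the TPM of SLC2A3 was 124 to 155 times that of SLC2A14 in KCl and 134 to 183 times in control.

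In upper glycolysis the response differed among isoform genes of one step. PFKM, the muscle form of phosphofructokinase, had 87.7, 87.6 and 90.7 CPM in KCl, against 72.9, 74.5 and 71.2 CPM in control (log2 fold change 0.28 ± 0.05, edgeR adjusted p = 6.69e-05). PFKP, the platelet form and the most abundant of the 3 per length, had 332, 343 and 331 CPM in KCl, against 305, 305 and 303 CPM in control (0.14 ± 0.04, edgeR adjusted p = 0.00507). PFKL, the liver form, had 186, 190.2 and 185 CPM in KCl and 189.9, 189.9 and 177 CPM in control, and did not pass (0.01 ± 0.04, edgeR adjusted p = 0.854). The groups were apart for PFKM and PFKP and overlapped for PFKL. ALDOA, the main aldolase, rose by a log2 value of 0.16 ± 0.04 (1782 ± 68.3 CPM in KCl, 1599 ± 14.9 CPM in control, SD, n = 3 each; edgeR adjusted p = 0.00188). The isomerase genes GPI (-0.02 ± 0.04) and TPI1 (0.04 ± 0.04) and the minor aldolase gene ALDOC (0.16 ± 0.11) did not pass. ALDOC passed with KCl library 2 left out (log2 fold change 0.29, edgeR adjusted p = 0.0463). The PFKP call was lost with library totals in place of TMM scaling (log2 fold change 0.08, edgeR adjusted p = 0.102) and on the deposited TPM (0.09, limma adjusted p = 0.0895), and ALDOA had 0.09 on the deposited FPKM (limma adjusted p = 0.0854).

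Of the 3 PFKFB genes, whose enzymes make and remove fructose 2,6-bisphosphate, an activator of phosphofructokinase, 2 rose. PFKFB3, the form with the strongest kinase activity, had 55.1, 53.3 and 53.9 CPM in KCl, against 40.7, 40.2 and 39.0 CPM in control. PFKFB4 averaged 11.4 ± 0.68 CPM in KCl and 7.9 ± 0.352 CPM in control (SD, n = 3 each). No KCl library overlapped a control library for either gene. The log2 fold changes were 0.44 ± 0.06 for PFKFB3 (edgeR adjusted p = 2.11e-06) and 0.52 ± 0.11 for PFKFB4 (edgeR adjusted p = 0.000573). PFKFB2, the form abundant in heart tissue, was low and did not pass, with 3.29 ± 0.199 CPM in KCl and 3.31 ± 0.403 CPM in control (SD, n = 3 each). On the log2(TPM + 1) scale the value of PFKFB3 was 0.29 (limma adjusted p = 0.00303), and on the log2(FPKM + 1) scale it was 0.25 for PFKFB3 and 0.29 for PFKFB4.

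Lower glycolysis held 4 genes that rose and, with TMM scaling, the 1 glycolytic gene that fell (ENO2 was also called lower with library totals, at -0.15, edgeR adjusted p = 0.0367). PKM, which codes for pyruvate kinase and makes pyruvate, had 3531, 3286 and 3582 CPM in KCl, against 2683, 2595 and 2749 CPM in control (log2 fold change 0.37 ± 0.04, edgeR adjusted p = 4.64e-08). PGK1, the first ATP-making step, had 797, 760.4 and 785 CPM in KCl, against 659, 694 and 639.7 CPM in control (0.23 ± 0.04, edgeR adjusted p = 4.22e-05). PGAM1, phosphoglycerate mutase, rose by 0.19 ± 0.04, with 573, 533 and 557 CPM in KCl and 484, 499 and 472 CPM in control. ENO1, the main enolase, rose by 0.17 ± 0.04, with 2862, 2652 and 2767 CPM in KCl and 2467, 2522 and 2383 CPM in control. All 4 genes were higher in every KCl library than in any control library. ENO2, the enolase best known from neurons, had a log2 value of -0.09 ± 0.06 and did not pass (edgeR adjusted p = 0.232). On the deposited FPKM the value of ENO1 was 0.10 (limma adjusted p = 0.0764).

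GAPDH, the oxidizing step that many studies take as a reference gene, was lower after KCl. It had 5612, 5300.1 and 5629 CPM in KCl, against 6106, 6139 and 5945 CPM in control, and no libraries overlapped. The log2 fold change was -0.14 ± 0.04, a difference of -9.1% (edgeR adjusted p = 0.0054, and 0.00618 to 0.0334 with each library left out in turn). It was lower under each scaling tried, from -0.14 with TMM to -0.21 on the deposited FPKM, and was not called against a fold change of 1.2. GAPDH had the highest level per length of the 45 genes, 9528 ± 219 TPM in KCl and 10769 ± 101 TPM in control (SD, n = 3 each). It therefore weighs heavily in sums. The glycolytic arm summed to 25448 ± 512 TPM in KCl and 24925 ± 91.9 TPM in control, and without GAPDH, a sum chosen after the values were seen, to 15919.6 ± 295 TPM in KCl and 14156 ± 30.5 TPM in control. The TPM of PKM over that of GAPDH, a ratio also chosen after the values were seen, was 0.304, 0.305 and 0.308 in KCl, against 0.21, 0.204 and 0.223 in control. The human genome annotation (GENCODE release 29) lists 62 pseudogenes named for GAPDH, 13 for PGAM1, 6 for LDHA and 5 for PKM, and 0 of these stand in the deposited table, so reads they may share with these genes cannot be told apart.

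LDHA and PFKFB4 had the largest increases of the 44 tested genes, and their order was not stable (0.56 for LDHA and 0.57 for PFKFB4 without KCl library 3). LDHA codes for the lactate dehydrogenase subunit that favours the making of lactate from pyruvate and lies at chr11:18394388-18408425 on the plus strand (GRCh38). LDHA had 1375, 1306 and 1314 CPM in KCl, against 917, 915 and 901 CPM in control, so the groups were far apart. It rose 1.46-fold (log2 fold change 0.55 ± 0.04, edgeR adjusted p = 1.7e-11). LDHB, the subunit that predominates in the normal heart, had 363, 355 and 346 CPM in KCl and 326, 354 and 345 CPM in control and did not pass (0.05 ± 0.04, edgeR adjusted p = 0.304). Per length, LDHA had 1312 ± 21.8 TPM in KCl and 921 ± 6.47 TPM in control, and LDHB had 599.7 ± 12.5 TPM in KCl and 593 ± 22.6 TPM in control (SD, n = 3 each).

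**Figure D2:**
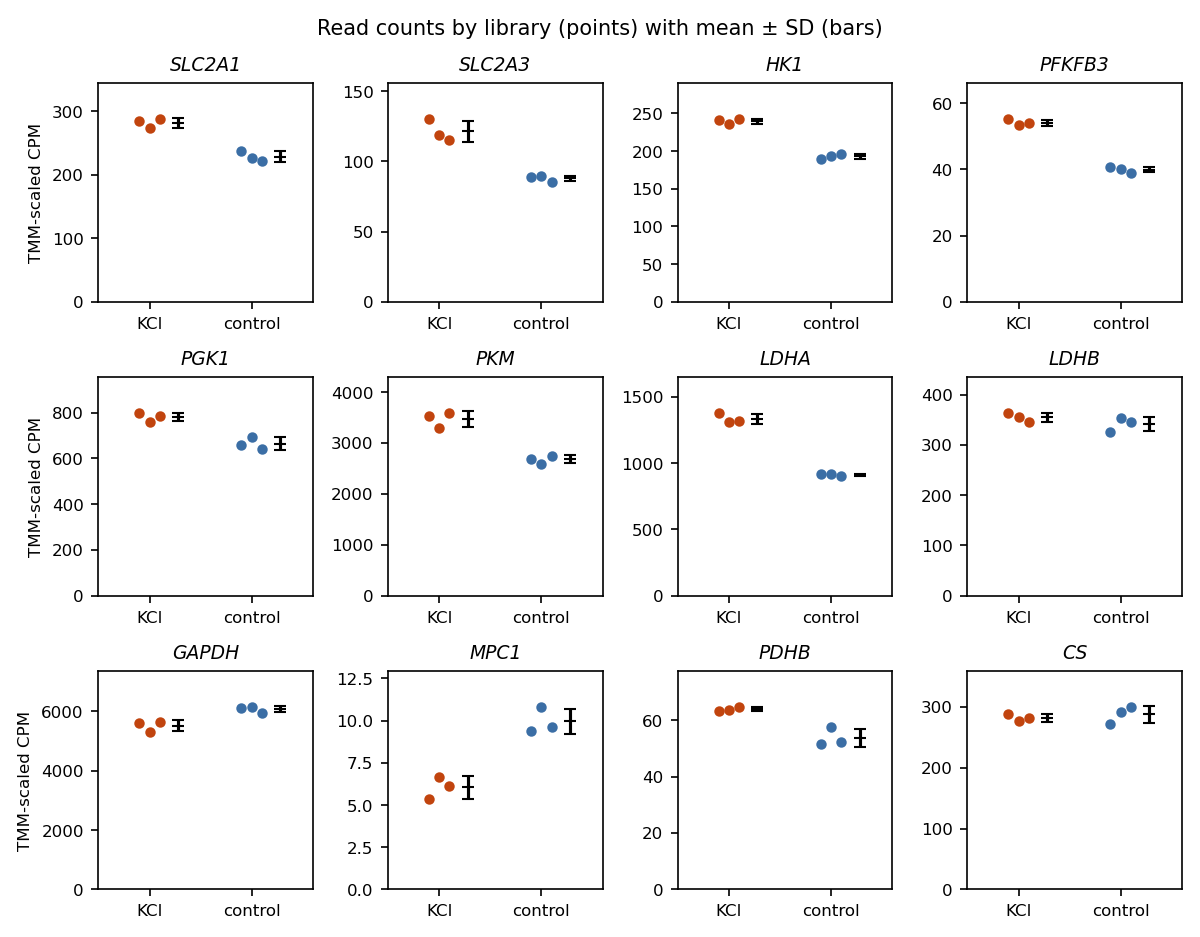
TMM-scaled CPM (vertical axis, from 0) of 12 genes in the 3 KCl libraries (left, red) and the 3 control libraries (right, blue), with mean ± SD as black bars. KCl points lie above control points for SLC2A1, SLC2A3, HK1, PFKFB3, PGK1, PKM, LDHA and PDHB and below them for GAPDH and MPC1, and the groups overlap for LDHB and CS.

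Per length, levels ran from near 0 TPM for PDK4 to GAPDH at the top, and the glycolytic genes were the more abundant ones. The 12 TCA cycle genes summed to 1472 ± 1.83 TPM in KCl and 1535 ± 12.1 TPM in control (SD, n = 3 each). The 4 PDH subunit genes summed to 249 ± 7.36 TPM in KCl and 252 ± 5.77 TPM in control. The 2 LDH genes alone summed to 1912 ± 32.5 TPM in KCl and 1514 ± 16.2 TPM in control, so their sum was above that of the TCA cycle genes in KCl and close to it in control. The mitochondrial arm as a whole had 1818 ± 13.3 TPM in KCl and 1896 ± 12.1 TPM in control.

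**Figure D3:**
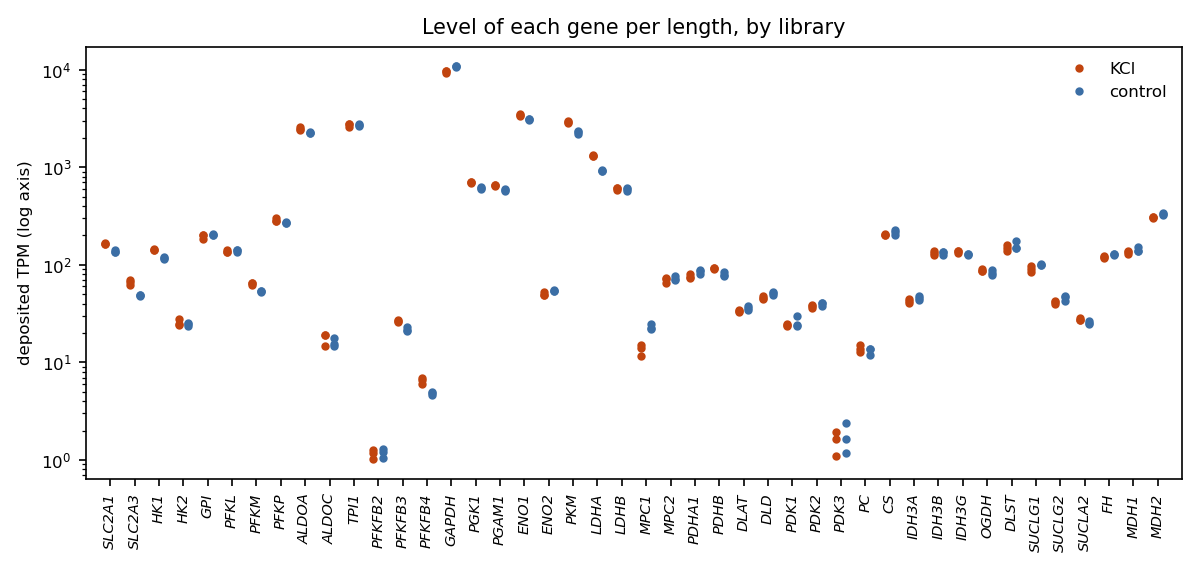
Deposited TPM (vertical log axis) of the 44 tested genes in pathway order, with KCl libraries in red on the left and control libraries in blue on the right of each gene. Most genes from ALDOA to LDHB lie far above the PDH and TCA genes, GAPDH is highest at 9528 TPM in KCl and 10769 TPM in control, and the gap between groups is clear for LDHA and MPC1.

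Mitochondrial pyruvate entry had the largest decrease among the 44 tested genes. MPC1 codes for one subunit of the mitochondrial pyruvate carrier, which works as a pair with MPC2, and lies at chr6:166364919-166383013 on the minus strand (GRCh38). MPC1 had 5.35, 6.68 and 6.13 CPM in KCl, against 9.41, 10.8 and 9.64 CPM in control, without overlap. It fell by 0.72 ± 0.13 on the log2 scale, a difference of -39.1% (edgeR adjusted p = 7.15e-05, and 0.00013 to 0.0013 with each library left out in turn). MPC2 had 36.3, 34.9 and 31.0 CPM in KCl and 34.8, 36.6 and 34.0 CPM in control and did not pass (-0.04 ± 0.07, edgeR adjusted p = 0.663). The TPM of MPC1 over that of MPC2, a ratio chosen after the values were seen, was 0.162, 0.21 and 0.216 in KCl, against 0.306, 0.323 and 0.318 in control. MPC1 is a low gene, at 13.6 ± 1.78 TPM in KCl and 23.1 ± 1.48 TPM in control (SD, n = 3 each), and 3 of its 6 estimated counts were not whole.

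Of the 4 PDH complex genes only PDHB passed the test. PDHB, the beta subunit of the decarboxylating E1 enzyme, had 63.2, 63.7 and 64.6 CPM in KCl, against 51.6, 57.5 and 52.3 CPM in control (0.25 ± 0.06, edgeR adjusted p = 0.00142). Its partner PDHA1, the alpha subunit that PDK enzymes phosphorylate, had 78.0, 79.6 and 74.9 CPM in KCl and 78.9, 84.9 and 81.8 CPM in control and did not pass (-0.08 ± 0.05, edgeR adjusted p = 0.236). The TPM of PDHB over that of PDHA1, also chosen after the values were seen, was 1.22, 1.16 and 1.24 in KCl, against 0.948, 0.989 and 0.894 in control. DLAT, the E2 core, had a log2 value of -0.06 ± 0.06, and DLD, the E3 subunit shared with other dehydrogenases, had -0.11 ± 0.05. DLD was called lower with library totals (-0.17, edgeR adjusted p = 0.00854), on log2(FPKM + 1) (-0.17, limma adjusted p = 0.0195) and with control library 3 left out (-0.15, edgeR adjusted p = 0.0417). PDHA1 was likewise called lower on other scalings (-0.14 with library totals, edgeR adjusted p = 0.0313, and -0.15 on log2(TPM + 1), limma adjusted p = 0.0416).

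None of the PDK genes, whose kinases switch PDH off, passed. PDK1 had 36.6, 34.6 and 35.3 CPM in KCl and 41.6, 40.5 and 32.6 CPM in control (-0.11 ± 0.08, edgeR adjusted p = 0.297). Control library 3 was the low one, and with it left out PDK1 had a log2 value of -0.21 (edgeR adjusted p = 0.0239). PDK2 had -0.02 ± 0.06 and PDK3 -0.13 ± 0.20. PDK4, the isoform best known in heart and skeletal muscle, had 1, 0 and 2 reads in the KCl libraries and 0 in each control library, and was not tested. A count of 0 allows up to 3 reads in a library, or 0.1555 to 0.1613 CPM (95% limit for counting error only), so no difference in PDK4 was detectable at this depth. PC, pyruvate carboxylase, which feeds oxaloacetate into the cycle, had 26.1 ± 1.65 CPM in KCl and 23.9 ± 1.9 CPM in control and did not pass (0.13 ± 0.08, edgeR adjusted p = 0.218).

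In the TCA cycle 2 of 12 genes rose, both by little, and 10 did not pass. IDH3G, a regulatory subunit of NAD-dependent isocitrate dehydrogenase, had 95.0, 93.0 and 91.1 CPM in KCl, against 84.8, 84.4 and 85.4 CPM in control (0.13 ± 0.05, edgeR adjusted p = 0.0295). OGDH, the E1 subunit of the 2-oxoglutarate dehydrogenase complex, had 162, 159.7 and 171 CPM in KCl, against 149, 147 and 155 CPM in control (0.13 ± 0.04, edgeR adjusted p = 0.0248). The groups did not overlap for either gene. Both calls depended on single libraries and on the scaling. IDH3G lost its call without KCl library 1 (edgeR adjusted p = 0.104) or 2 (0.0527) and without control library 1 (0.089), 2 (0.0719) or 3 (0.0561). OGDH lost its call without KCl library 3 (edgeR adjusted p = 0.13) and without control library 1 (0.0962) or 2 (0.0878). With library totals IDH3G had 0.07 and OGDH 0.06, and on log2(TPM + 1) they had 0.09 and 0.06, none of which passed.

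The first enzyme of the cycle, citrate synthase (CS), had 289, 276 and 281 CPM in KCl and 272, 292 and 299.5 CPM in control and did not pass (-0.03 ± 0.04, edgeR adjusted p = 0.636). The other 2 subunits of isocitrate dehydrogenase, IDH3A (-0.07 ± 0.06) and IDH3B (0.04 ± 0.05), also did not pass, nor did DLST, the E2 core of the 2-oxoglutarate complex (-0.03 ± 0.04). The succinate-CoA ligase genes SUCLG1 (-0.12 ± 0.06), SUCLG2 (-0.11 ± 0.06) and SUCLA2 (0.14 ± 0.07), fumarase FH (-0.06 ± 0.05), and the malate dehydrogenases MDH1 in the cytosol (-0.05 ± 0.06) and MDH2 in mitochondria (-0.07 ± 0.04) completed the list without a call under TMM. With library totals, SUCLG1 (-0.18, edgeR adjusted p = 0.0146), SUCLG2 (-0.18, 0.0286) and FH (-0.13, 0.0315) were called lower, and on log2(FPKM + 1) they were too (limma adjusted p of 0.0148, 0.0347 and 0.0224). SUCLG1 also passed without KCl library 1 (-0.18, edgeR adjusted p = 0.0304), and SUCLG2 without control library 3 (-0.17, edgeR adjusted p = 0.0493). MDH2 had 324, 311 and 319 CPM in KCl and 343, 331 and 329 CPM in control, and it was called lower with library totals (-0.13, edgeR adjusted p = 0.00708) and on log2(TPM + 1) (-0.11, limma adjusted p = 0.0324).

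How the members of an isoform family share the family's level was compared as a percentage of the summed TPM in 9 families (16 shares, 2-sided exact permutation test over the 6 libraries). With 3 libraries against 3 the exact permutation test cannot go below p = 0.10, so no share could pass, and the lowest adjusted p of the exact test was 0.2. In 8 of the 16 shares the groups did not overlap, a proportion close to the 47.8% of all tested genes whose CPM did not overlap, so the shares are given as a description. LDHA took 68.8%, 68.3% and 68.8% of LDH in the KCl libraries, against 62.1%, 60.1% and 60.3% in the control libraries, a mean of 68.6% ± 0.3 in KCl and 60.8% ± 1.1 in control (SD, n = 3 each). This was the largest difference among the shares, 7.8 percentage points. SUCLA2, the ATP-forming beta subunit, took 39.9% ± 1.4 in KCl and 35.8% ± 0.9 in control of the sum with SUCLG2, the GTP-forming one. HK1 took 84.9% ± 1.0 of the hexokinase sum in KCl and 82.8% ± 0.2 in control, and PFKM took 13.1% ± 0.4 of phosphofructokinase in KCl and 11.5% ± 0.1 in control, while PFKL took 28.1% ± 0.1 in KCl and 30.1% ± 0.6 in control. PFKP took 58.8% ± 0.5 in KCl and 58.3% ± 0.6 in control, with overlap. GLUT1 remained the larger transporter transcript, with SLC2A1 at 71.4% ± 1.4 in KCl and 73.7% ± 0.6 in control. ENO1 (98.6% in KCl, 98.3% in control) and ALDOA (99.3% in both) made up almost all of their families.

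**Figure D4:**
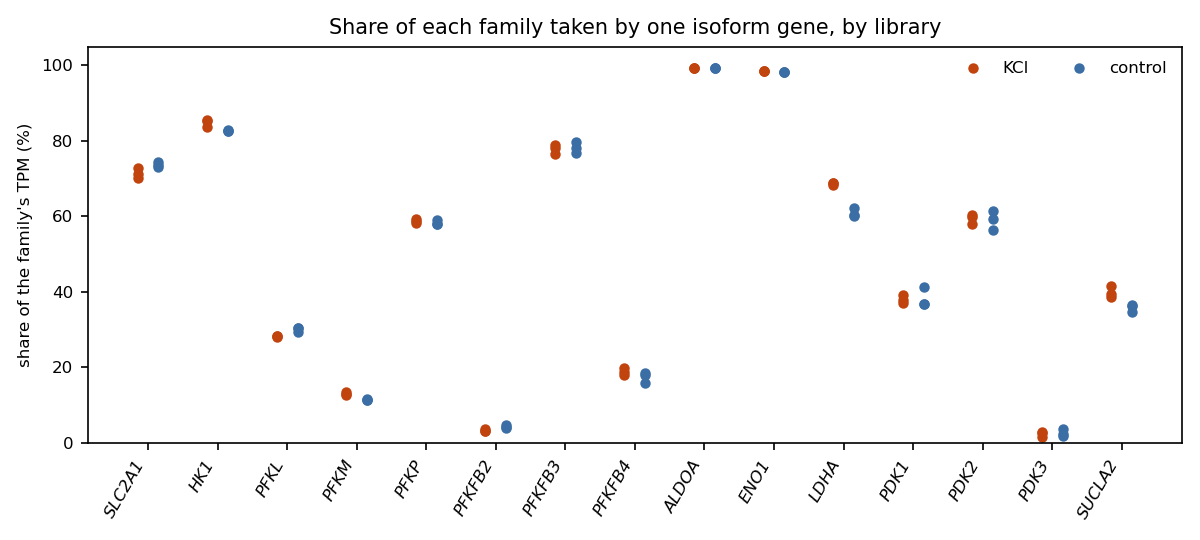
Share of the family's summed TPM (vertical axis, percent) taken by each of 15 genes, with KCl libraries in red on the left and control libraries in blue on the right; PDK4, at or near 0, is left out. LDHA shows the widest gap, 68.6% in KCl and 60.8% in control, and most other shares differ by less than 3 points.

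The start regions of the called genes were read for short sequences bound by factors known to act on glycolytic genes. These were ACGTG, the core of the hypoxia response element, its variant GCGTG, the E-box CACGTG bound by MYC and its relatives, and TGACNNNGC, the antioxidant response element core bound by NRF2, the factor named in the study's title. The windows held 250 bases before each start, were searched on both strands, came from RefSeq (GRCh38.p14), and covered 42 of the 45 genes (not PFKFB2, SLC2A3 and OGDH). CACGTG holds ACGTG on both strands and gives 2 matches there. The 6 called genes with at least 2 ACGTG matches in a window are shown, 5′ to 3′ on the gene's strand, 30 bases each, because ACGTG is the motif whose share differed most between the arms; in ALDOA, PFKFB3 and GAPDH the 2 matches are 1 CACGTG read on both strands, and capitals mark ACGTG or GCGTG on either strand.
LDHA: actcaCACGTGggttcccgCACGTccgccg
ALDOA: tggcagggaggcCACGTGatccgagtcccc
PFKFB3: caccctcctcccCACGTGgaagggggctgg
GAPDH: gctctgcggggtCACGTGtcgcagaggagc
PGK1: cgcgGCGTGccggACGTGacaaacggaagc
PDHB: accaggCACGTGtgcccaGCGTGcaccccg

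These stretches lie at chr11:18394471-18394500 (LDHA), chr16:30064373-30064402 (ALDOA), chr10:6202812-6202841 (PFKFB3), chr12:6535171-6535200 (GAPDH) and chrX:78104033-78104062 (PGK1), all on the plus strand, and at chr3:58434045-58434074 (PDHB) on the minus strand. The LDHA window held 5 ACGTG matches in all, the highest number of the 6. Its 2 CACGTG count as 2 matches each, and the 3 matches of PDHB include 1 CACGTG counted that way. Genes that did not pass had similar numbers, with 4 in an HK2 window and 3 in the ALDOC window. GAPDH, which fell, held the same motif as genes that rose. ACGTG was in 36.8% of the 38 windows of the glycolytic arm, in 16.7% of the 24 windows of the mitochondrial arm and in 18.5% of all 35116 windows in the table. Within the glycolytic arm it was in 25.0% of the 28 windows of genes that rose (10 genes with a window). It was in 66.7% of the 9 windows of genes that did not pass (7 genes). These shares count windows, and HK1 and PFKM, which rose, have many listed starts with few or no matches. By gene, PFKP, PFKM, ALDOA, PGK1 and LDHA had ACGTG in some window among the 10 that rose. Among the 7 that did not pass, HK2, GPI, ALDOC, TPI1 and ENO2 had it. GCGTG was in 26.3% of the glycolytic windows, 41.7% of the mitochondrial windows and 32.2% of all windows, and CACGTG in 13.2%, 4.2% and 6.3% in the same order. TGACNNNGC was in 13.2% of the glycolytic, 8.3% of the mitochondrial and 10.9% of all windows. Genes with several listed starts give several windows, and which start AC16 cells use was not measured.

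Other genes of the same routes, 86 in 8 lists, were counted in the same fit. Of the 71 tested, 27 were higher and 10 lower, with a median log2 fold change of 0.10, beside 20.1% higher and 18.0% lower over all genes. In glucose transport, 2 of 8 rose and 3 fell. SLC2A6, coding for the transporter GLUT6, had 40.5 ± 3.77 CPM in KCl and 24.3 ± 1.14 CPM in control (0.74 ± 0.08, edgeR adjusted p = 2.28e-08), and SLC2A8, coding for GLUT8, fell by 0.58 ± 0.12 (edgeR adjusted p = 0.000307). TXNIP, whose protein promotes the removal of glucose transporters from the cell surface, had 322 ± 4.9 CPM in KCl and 433 ± 16.5 CPM in control (-0.43 ± 0.04, edgeR adjusted p = 4.31e-09). Among 5 tested lactate genes 2 rose. SLC16A3, coding for the lactate exporter MCT4, had 389, 358 and 388 CPM in KCl, against 256, 258 and 246 CPM in control (0.58 ± 0.04, edgeR adjusted p = 5.72e-11), and SLC16A7, coding for the transporter MCT2, rose by 0.24 ± 0.08 but lost its call without KCl library 1 or control library 2 (edgeR adjusted p up to 0.106).

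Among other glycolytic genes and isoforms 2 of 6 tested rose. PGP, which codes for a phosphatase that removes side products of glycolysis, rose by 0.40 ± 0.06 (edgeR adjusted p = 8.37e-06). HKDC1, a hexokinase relative, was low at 1.59 ± 0.487 CPM in KCl and 0.722 ± 0.153 CPM in control (SD, n = 3 each), and its call was lost without KCl library 3 (edgeR adjusted p = 0.0841). Of 9 tested glycogen genes 2 rose, among them the phosphorylase PYGB (0.23 ± 0.04), and 2 fell, among them GYG1, coding for the glycogen primer glycogenin (-0.32 ± 0.05).

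Around PDH, 3 of 7 genes rose and 1 fell. PDP2, a phosphatase that reactivates PDH, had 25.5 ± 1.61 CPM in KCl and 19.0 ± 1.61 CPM in control (0.42 ± 0.08, edgeR adjusted p = 0.000263). PDPR, a regulatory subunit of PDH phosphatase, rose by 0.17 ± 0.05 and lost its call without control library 1 or 2 (edgeR adjusted p up to 0.0758). LIAS, which makes the lipoic acid that the E2 subunits carry, fell to 12.4 ± 1.94 CPM in KCl, against 18.0 ± 1.41 CPM in control (-0.54 ± 0.11, edgeR adjusted p = 0.000224). Of 11 tested genes of other TCA steps 4 rose and 1 fell. The cytosolic enzymes IDH1 (0.44 ± 0.05) and ACO1 (0.30 ± 0.04) rose.

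Of 15 tested genes that fill or drain the cycle 7 rose and 2 fell. ME1, the cytosolic malic enzyme, had 66.3 ± 1.26 CPM in KCl and 43.1 ± 3.15 CPM in control (0.62 ± 0.06), and ACLY, which splits citrate into acetyl-CoA in the cytosol, had 502 ± 13.1 CPM in KCl and 378 ± 3.69 CPM in control (0.41 ± 0.04; SD, n = 3 each). Among 10 tested genes of transcription factors and coactivators that act on these routes 5 rose and 1 fell. HIF1A, coding for the oxygen-regulated subunit of the hypoxia factor, had 856 ± 21.6 CPM in KCl and 607 ± 14.2 CPM in control (0.50 ± 0.04, edgeR adjusted p = 1.33e-10). EPAS1, coding for its relative HIF-2 alpha, rose by 0.37 ± 0.04 and MYC by 0.25 ± 0.04.

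**Figure D5:**
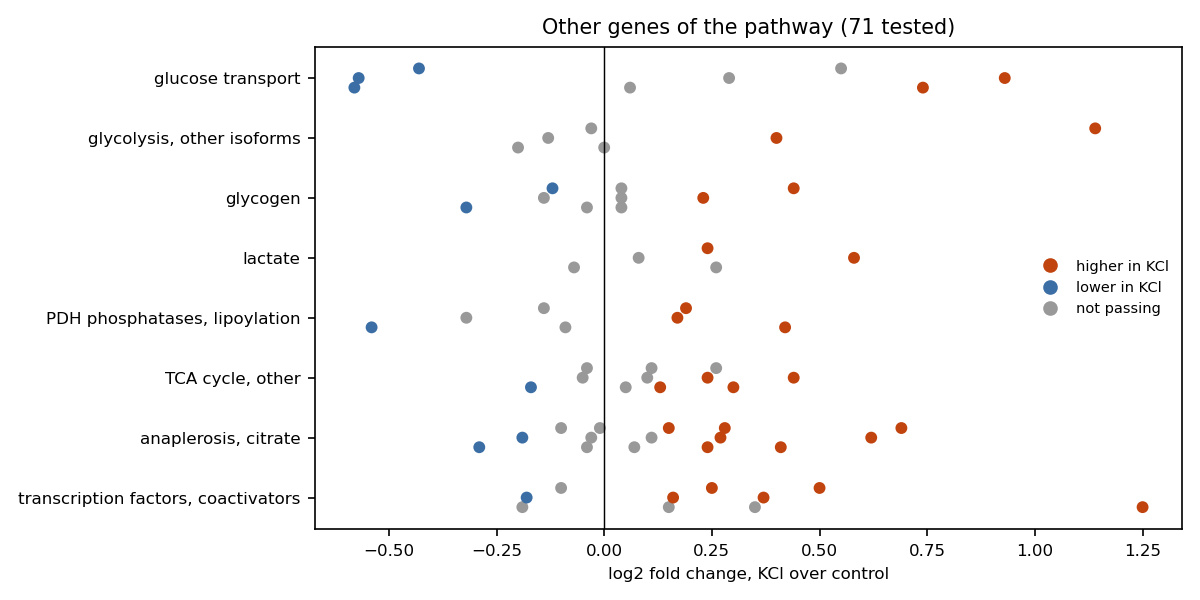
Log2 fold change of KCl over control (horizontal axis) for the 71 tested genes of 8 further lists (rows), one point a gene, red where higher, blue where lower and grey where the test was not passed; the vertical offsets within a row only keep points apart. The 27 higher genes lie in all rows and the 10 lower genes in 6 of them.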

How the data were processed

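Strand-specific mRNA libraries of AC16 cells, 3 KCl and 3 control, were analysed. The authors deposited estimated counts for each gene, left unnormalized, of which 11.25% to 11.87% in a library were not whole. It also gives TPM and FPKM, which the authors computed and deposited per gene length and library size. The submitters' processing notes name GRCh38.p12. For the aligner and the counter, a name is not given in the sources used here. Groups of the coded columns were identified from the group means in the table, whose headers name control and treated. In 725 genes all libraries were at 0.

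Estimated counts were rounded and tested with edgeR 4.0.16 (R 4.3.3): TMM scaling, filterByExpr (minimum count 10, minimum total 15), robust quasi-likelihood F test, 2-sided, Benjamini-Hochberg adjustment over 13044 genes, threshold 0.05. TMM factors were 0.9758 to 0.9841 in KCl and 1.0212 to 1.0221 in control. CPM are TMM-scaled, and the SE is the log2 fold change divided by the square root of F. The pipeline was tested on simulated data. TPM gave levels between genes and isoform shares (exact permutation test, scipy 1.17.1). Positions came from GENCODE release 29. Alternatives used DESeq2 1.42.0 and limma 3.58.1, other scalings, filters and units, a replicate block, and each library left out in turn. The genes and lists were chosen with earlier results of these data known. All 45 genes are accounted for, and from each further list at most 3 called genes with the smallest p are named; other genes were chosen after their values were seen. A few called genes of these lists are not reported here.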

Additional observations from a re-analysis of the deposited data

How the results depend on the processing

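Over 18 alternative settings the 44 tested genes gave 790 values, of which 727 kept the side of the threshold (21 of them changed sign, none called in either fit), 37 lost and 26 gained a call, and 0 called values reversed. RLE scaling, other count filters, DESeq2 and limma-voom changed no call of the 44. Same-numbered libraries did not deviate together (r = -0.00, -0.01 and 0.05), and with a replicate block 2715 genes were higher and 2425 lower and no call of the 44 changed.

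Calls against a fold change of 1.2 (glmTreat) numbered 661 higher and 430 lower over all genes. They were 3 higher and 0 lower in the glycolytic arm and 0 higher and 1 lower in the mitochondrial arm. Among the further pathway genes 10 were higher and 4 lower. Scaling shifted the split. The median over all genes was -0.066 with library totals, -0.040 on TPM and -0.063 on FPKM, and calls were 1893 higher and 3464 lower with library totals, 1838 and 2635 on log2(TPM + 1), and 1558 and 3118 on FPKM, against 2621 and 2342 with TMM; TPM without a filter gave 1576 higher. Library totals and FPKM each gave 2 lower in the glycolytic arm and 1 higher and 7 lower in the mitochondrial arm, with medians of 0.10 and -0.11. TPM gave 1 higher in the mitochondrial arm, with 4 lower (pseudocounts of 1 and 0.1) or 2 lower (no filter), a glycolytic median of 0.13 and mitochondrial medians of -0.08, -0.09 and -0.08. Among the further genes 16 were lower with library totals and 17 higher on FPKM. The difference of the arm medians was 0.21 under each of these scalings. A scaling factor per library shifts both medians alike and largely cancels in this difference, so it could hardly have moved.

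Leaving out each library in turn gave 1 to 2 higher and 1 to 3 lower in the mitochondrial arm, a glycolytic median of 0.15 to 0.20, and a difference of medians of 0.19 to 0.25, highest without KCl library 2. The gap between the arms' mean log2 CPM was 0.20 to 0.23 wider in KCl and the LDHA share 7.4 to 8.4 points higher. Of the 37 called further genes, 12 lost their call without some library. Why these values moved was not tested.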

Other observations

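The ratio of the deposited estimated count to FPKM implies the transcript length that was used for a gene in a library. Of 42 genes with at least 100 reads on average, this length differed between the groups by under 1% for 33 and by over 2% for 5. PFKFB3 had implied lengths of 4161, 4314 and 4322 bases in KCl and 4121, 4123 and 3711 bases in control, 7.0% longer in KCl on average, and the groups did not overlap. PFKFB4 had 3609, 3732 and 3737 bases in KCl and 3574, 3486 and 3558 bases in control, 4.3% longer. PKM had 2516, 2504 and 2517 bases in KCl and 2541, 2523 and 2521 bases in control, a difference of -0.7%. Which transcripts were present was not measured at the level of the deposited gene values.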
